A study of Mus musculus with 2 samples.

Results

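Receptors for niche homing and adhesion were described as a set of 9 genes, Cxcr4, Itga4, Itgb1, Itgal, Itgb2, Selplg, Cd44, S1pr1 and Vcam1. They were taken as listed symbols, and all 9 were found among the 27998 genes of both libraries. Each library held single cells of mouse bone marrow sorted as lineage-negative, Sca-1+ and c-Kit+ (LSK), the compartment of haematopoietic stem and progenitor cells (HSPCs), from animals 3 months old. There was 1 library per genotype: Trmt6 WT, labelled Trmt6fl/fl, and Trmt6 cKO (conditional knockout), labelled Trmt6fl/fl, MX1-cre. Trmt6 encodes a subunit of the methyltransferase that places m1A on tRNA, and Mx1-Cre is a recombinase switched on by interferon. A figure legend of the study describes WT mice as Trmt6+/+ with Mx1-Cre and gives pIpC, an inducer of interferon, to both genotypes. The study's methods instead name Trmt6fl/+ with Mx1-Cre beside Trmt6fl/fl with Mx1-Cre. Labels, legend and methods therefore differ on whether the control carried floxed alleles or the recombinase. The number of mice behind each library is not given in the sources used here. Genotype and library cannot be told apart, no difference below has a replicate check, and no p-value is given.

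The receptors act in sequence. PSGL-1 (Selplg) and CD44 bind selectins on marrow endothelium and let circulating cells roll, the chemokine receptor CXCR4 reads CXCL12 made by niche stroma, and integrins activated by that signal hold the cell to the vessel wall and the stroma. The integrin VLA-4 pairs the chains Itga4 and Itgb1 and binds VCAM-1 and fibronectin, LFA-1 pairs Itgal and Itgb2 and binds ICAMs, and the sphingosine-1-phosphate receptor S1pr1 draws cells out of the marrow towards blood. Vcam1 encodes the VLA-4 ligand, best known from endothelium, stroma and macrophages.

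The promoters are shown first for genes whose levels moved apart: Itga4 and Cd44, both lower in the cKO library, and Itgb1, which differed least. Each stretch of 300 bases runs from 250 before to 50 after the gene start (RefSeq, GRCm38.p6), and capitals mark the GC box, GGGCGG or its reverse complement. They lie at chr2:79255176-79255475 (plus strand), chr2:102901616-102901915 (minus strand) and chr8:128685404-128685703 (plus strand).
Itga4: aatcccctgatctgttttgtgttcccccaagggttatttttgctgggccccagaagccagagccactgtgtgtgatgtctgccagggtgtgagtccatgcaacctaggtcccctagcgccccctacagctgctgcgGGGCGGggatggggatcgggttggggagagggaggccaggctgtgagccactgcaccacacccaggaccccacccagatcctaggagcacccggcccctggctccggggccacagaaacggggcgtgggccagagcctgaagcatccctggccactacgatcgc
Cd44: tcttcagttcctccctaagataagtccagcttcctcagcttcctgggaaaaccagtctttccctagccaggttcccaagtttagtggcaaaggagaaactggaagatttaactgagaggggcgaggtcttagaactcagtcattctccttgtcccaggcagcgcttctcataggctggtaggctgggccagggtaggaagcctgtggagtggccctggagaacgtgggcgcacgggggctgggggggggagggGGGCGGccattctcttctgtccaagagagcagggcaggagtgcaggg
Itgb1: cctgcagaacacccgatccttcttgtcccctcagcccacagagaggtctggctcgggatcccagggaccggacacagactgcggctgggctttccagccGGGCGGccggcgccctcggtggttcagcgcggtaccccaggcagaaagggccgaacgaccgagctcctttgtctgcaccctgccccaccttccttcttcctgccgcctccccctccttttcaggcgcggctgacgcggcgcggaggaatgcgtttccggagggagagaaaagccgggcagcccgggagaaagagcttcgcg
The GC box occurred 1 time in each of these 3 and 3 times in the Cxcr4 promoter, and on either strand it is found in 35.7% of the 32851 promoters of this length. The AP-1 letters TGANTCA were not in any of the 4 promoters (7.81% of all), and neither were the cyclic AMP element TGACGTCA (1.79%) or the ATF4 element TGATGNAA (3.97%). The ETS core CCGGAA occurred 1 time, in Itgb1 (14.9% of all). TATAAA occurred 2 times in overlapping positions of the Cxcr4 promoter (13.6% of all), and CCAAT was in none of the 4 windows (37.4% of all). Promoters of Itgal, Itgb2, Selplg, S1pr1 and Vcam1 are not shown.

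Levels are given as UMIs (unique molecular identifiers, 1 per captured transcript) of a gene per 1000000 UMIs (CPM) summed over the cells of a population. They rest on 3′ end counts, so they are compared between libraries or gates and never between genes. Ratios are log2 of cKO over WT with their 95% counting intervals, and a difference whose interval leaves out 0 is called beyond counting error. A gene counted as past 2-fold where the log2 ratio reached 1 in either direction and a library had at least 5 CPM. After filtering, 8147 WT cells (42950337 UMIs, median 4273 per cell) and 8477 cKO cells (88029025 UMIs, median 10098) were kept, and 21 kept cell barcodes occurred in both libraries. Trmt6 itself, the targeted gene, was at 63.9 CPM in WT against 50.5 CPM in cKO over all kept cells (log2 ratio -0.34) and at 79.8 and 31.5 CPM in HSC-gated cells (-1.35, interval -2.05 to -0.61). It was within counting error in LMPP-gated (-0.11, -0.71 to 0.42) and GMP-gated cells (-0.17, -0.51 to 0.14), and at -0.30 (-0.38 to -0.22) in ungated cells.

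Lineages were read by marker gates on cells thinned to 2000 UMIs. A cell entered a gate with at least 3 of its 8 markers, for instance Procr, Hlf, Mecom and Fgd5 for haematopoietic stem cells (HSCs), Dntt, Flt3 and Il7r for lymphoid-primed multipotent progenitors (LMPPs), and Mpo, Elane and Prtn3 for granulocyte-monocyte progenitors (GMPs). The HSC gate held 113 WT and 213 cKO cells, the LMPP gate 456 and 85, and the GMP gate 1359 and 86. In each of these gates all 5 markers kept out of the gating were higher than in the other cells of the same library, in both libraries. The gates were strict: 5791 WT cells (71.1%) and 7829 cKO cells (92.4%) entered none and are called ungated. A gate also did not hold identical cells in both libraries, since the median of its own markers differed by a log2 ratio of -0.69 in the HSC, -0.35 in the LMPP and -0.88 in the GMP gate. Orders of gates within a library cover gates of at least 50 cells: HSC, LMPP and GMP in both libraries, MkP in WT and B cell in cKO.

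Over all kept cells, 8 of the 9 receptors were lower in the cKO library (Vcam1 only until both libraries were given the same mix of gates, which put it at a log2 ratio of 0.09) and 1, Itgb2, was higher. Among the 7 receptors at 5 CPM or more, 2 were past 2-fold lower (Selplg and Cd44) and 0 past 2-fold higher. With TMM or median-of-ratios scaling it was the reverse, 1 higher (Itgb2, 1.03 and 1.04) and 0 lower. Of the 9141 genes measured, 5.21% were past 2-fold lower, 2.95% past 2-fold higher and 8.16% past 2-fold in either direction and beyond counting error. The median log2 ratio of the 7 receptors was -0.62, against -0.07 for all genes measured. In sums over a whole library, fewer cells of a type and less RNA per cell cannot be told apart, so each receptor is given by gate below. Markers of other lineages also differed within the gates. GMP markers summed to 1542.1 CPM in WT against 814 CPM in cKO in HSC-gated cells (1 of 8 at 0 in each library) and to 1481.7 and 570 CPM in LMPP-gated cells (0 and 2 of 8 at 0). Neutrophil markers summed to 362 and 6.17 CPM in HSC-gated cells (2 and 6 of 8 at 0), 239 and 2.72 CPM in LMPP-gated cells (0 and 6 at 0) and 211 and 131 CPM in GMP-gated cells (0 and 4 at 0). Their part in the receptor differences by gate was not tested.

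**Figure D1:**
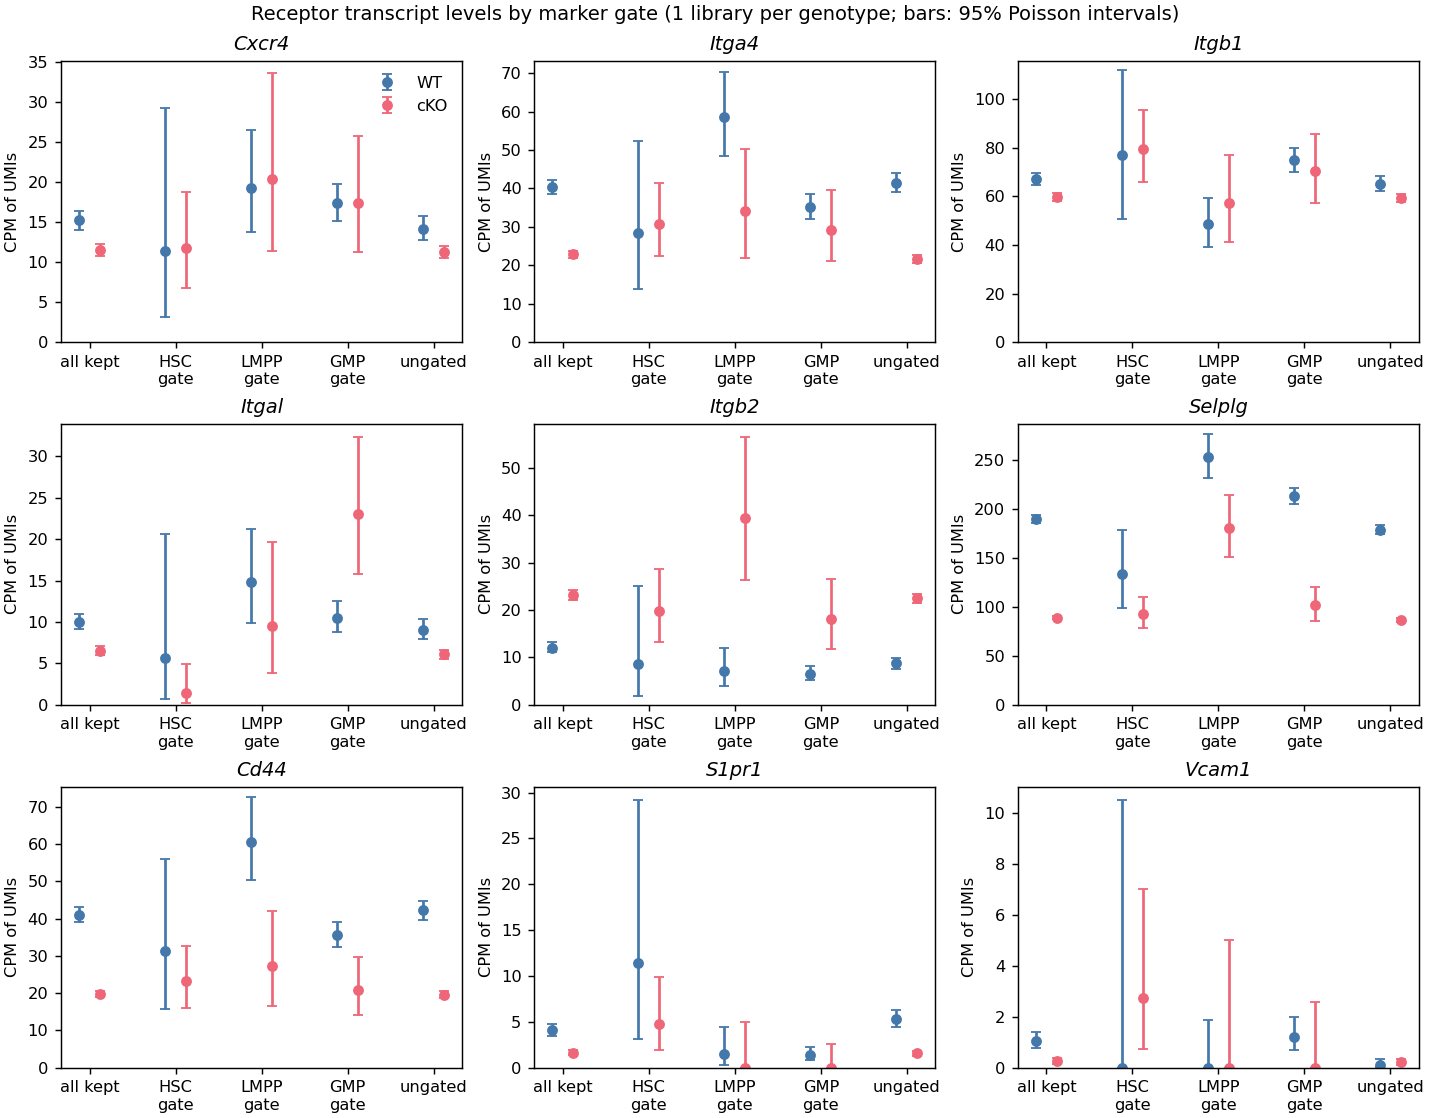
CPM of each receptor (y axis, own scale per gene) in the WT (blue) and cKO (red) library over all kept cells, 3 marker gates and ungated cells; points are summed counts of 1 library and bars 95% Poisson intervals. Itgb2 lies higher in cKO in every population drawn and Selplg and Cd44 lower, while Itga4, Itgal, Itgb1 and Cxcr4 change their order between gates, mostly within counting error.

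Selplg, the selectin ligand PSGL-1, was lower in cKO over all kept cells, in ungated cells and in the HSC, LMPP and GMP gates. It was at 190 CPM (95% interval 186 to 194) in WT and 89.1 CPM (87.2 to 91.1) in cKO over all kept cells (log2 ratio -1.09, -1.14 to -1.05; -0.82, short of 2-fold, with each cell scaled before averaging). By gate it was at 134 against 93.2 CPM in HSC-gated cells (-0.53, interval -1.01 to -0.01), 253 against 181 CPM in LMPP-gated cells (-0.48, -0.77 to -0.21) and 213 against 102 CPM in GMP-gated cells (-1.06, -1.31 to -0.82). The WT and cKO intervals overlapped in the HSC gate, where only 47 WT UMIs were counted, and did not overlap in the LMPP and GMP gates. The HSC interval ends at -0.01, and the HSC ratio was -0.41 with TMM scaling, -0.39 by median of ratios and -0.03 on thinned UMIs, so the HSC difference depends on the scaling. The GMP ratio fell short of 2-fold under 4 alternatives, at the least -0.85 with a gate of at least 4 markers. Ungated cells gave 179 and 86.2 CPM (-1.05).

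Selplg levels also followed lineage. In WT the level fell from the LMPP over the GMP and HSC gates to the megakaryocyte progenitor (MkP) gate at 74.5 CPM, each step beyond counting error. In cKO the LMPP gate again lay above the GMP gate beyond counting error, while GMP, HSC and B cell gates (87.3 CPM in 67 B-gated cells) did not differ beyond it. After thinning each cell to 2000 UMIs, 28.3% of 7963 WT cells and 17.5% of 8378 cKO cells held a Selplg UMI (52.3% and 56.6% unthinned, at unequal depth). No gated class of sufficient size lacks PSGL-1, so the share from free RNA was not measured.

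Cd44, a receptor for hyaluronan that also carries selectin-binding glycans, was at 41.0 CPM in WT against 19.7 CPM in cKO (log2 ratio -1.06, -1.16 to -0.96; -0.97 with TMM and -0.96 with median-of-ratios scaling, short of 2-fold). It was at 60.6 against 27.2 CPM in LMPP-gated cells (-1.13, -1.92 to -0.46; -0.89 with the gate read at 3000 UMIs). In GMP-gated cells it was at 35.5 against 20.9 CPM (-0.74, -1.35 to -0.23), with alternatives from -1.21 at 4 markers to -0.24 on thinned UMIs. The intervals of both gates overlap, and a difference between the gates was not tested. In HSC-gated cells 31.4 and 23.3 CPM rested on 11 and 34 UMIs and did not differ beyond counting error. Among WT gates of at least 50 cells, Cd44 was highest in the LMPP gate, beyond counting error above the GMP gate, whereas in cKO no neighbouring gates differed beyond it.

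Cxcr4, the CXCL12 receptor, differed little. It was at 15.2 CPM in WT against 11.5 CPM in cKO over all kept cells (-0.40, -0.54 to -0.25) and at 14.1 and 11.2 CPM in ungated cells. Within the gates the libraries did not differ beyond counting error, with 11.4 and 11.7 CPM in HSC-gated cells (log2 ratio -0.10, interval -1.58 to 2.06), 19.3 and 20.4 CPM in LMPP-gated cells (0.11) and 17.4 CPM in both libraries in GMP-gated cells (0.03). The HSC interval rests on 4 WT and 17 cKO UMIs and would hold a 2-fold difference in either direction. On UMIs thinned to 2000 per cell, with few UMIs left, the ratios were -0.91 in the HSC, -1.04 in the LMPP and 0.84 in the GMP gate. In neither library did neighbouring gates differ beyond counting error in Cxcr4.

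The chains of VLA-4 moved apart. Itga4, the alpha 4 chain, was at 40.3 CPM in WT against 22.8 CPM in cKO (-0.82, -0.92 to -0.73), and Itgb1, the beta 1 chain shared by many integrins, at 67.1 and 59.7 CPM (-0.17, -0.23 to -0.10). The lower Itga4 level was seen in ungated cells, at 41.5 against 21.6 CPM (-0.94), and in LMPP-gated cells, at 58.5 against 34.0 CPM (-0.76, -1.47 to -0.15; -0.22 on thinned UMIs). In HSC-gated cells Itga4 was at 28.5 and 30.8 CPM (10 and 45 UMIs) and in GMP-gated cells at 35.2 and 29.3 CPM, neither beyond counting error. The direction in these gates was not settled: the HSC ratio of 0.06 ran from -0.78 with the gate read at 3000 UMIs to 1.01 on thinned UMIs, and the GMP ratio turned from -0.25 to 1.05 on thinned UMIs. Itgb1 differed beyond counting error in none of the 3 gates, with 77.0 and 79.5 CPM in HSC-gated, 48.4 and 57.1 CPM in LMPP-gated and 74.8 and 70.4 CPM in GMP-gated cells.

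The lineage order of both chains was opposite in WT. Itga4 was higher in the LMPP than in the GMP gate, and Itgb1 higher in the GMP than in the LMPP gate, each beyond counting error. In cKO, B-gated cells had the lowest Itgb1 level of the gates, 18.3 CPM, beyond counting error under the LMPP gate, and 56.8 CPM of Itga4. UMIs of Itga4 per UMI of Itgb1 were 0.602 in WT and 0.382 in cKO over all kept cells, and 1.21 and 0.595 in LMPP-gated cells. Both chains were seen together in 0.791% of thinned WT cells and 0.489% of thinned cKO cells, beside products of the single shares of 1.02% and 0.541%.

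The chains of LFA-1 moved in opposite directions over all kept cells. Itgb2, the beta 2 chain of leukocyte integrins, was at 12.1 CPM (521 UMIs) in WT and 23.2 CPM (2045 UMIs) in cKO (log2 ratio 0.94, 0.80 to 1.08), just under 2-fold, and at 1.41 with the same mix of gates in both libraries. Itgal, the alpha L chain, was at 10.0 CPM in WT against 6.50 CPM in cKO (-0.62, -0.81 to -0.44). With the same mix of gates the Itgal ratio was -0.28, outside that interval. UMIs of Itgal per UMI of Itgb2 were 0.825 in WT and 0.280 in cKO. Both chains were seen together in 3 of 7963 thinned WT cells (0.0377%) and 10 of 8378 thinned cKO cells (0.119%). The products of the single shares were 0.0465% and 0.0558%.

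The Itgb2 level was higher in cKO in the HSC, LMPP and GMP gates, within counting error in the HSC gate. LMPP-gated cells had 7.13 CPM in WT against 39.4 CPM in cKO (2.44, 1.50 to 3.50) and GMP-gated cells 6.59 and 18.1 CPM (1.48, 0.76 to 2.11), in both gates without overlap of the intervals. With cells of more than 1 gate kept in each, the GMP ratio was 0.71 and no longer past 2-fold. HSC-gated cells had 8.55 and 19.9 CPM, from 3 and 29 UMIs (1.02, -0.47 to 3.58). With 2 markers instead of 3, the HSC gate grew to 253 WT and 367 cKO cells and gave 8.52 and 19.2 CPM (1.09, 0.03 to 2.56). The HSC ratio was short of 2-fold with cells of more than 1 gate kept in each (0.75) and with the gate read at 3000 UMIs (0.90). In cKO the LMPP gate lay above the HSC gate beyond counting error, and in WT no neighbouring gates did.

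Of the WT Itgb2 UMIs, ungated cells held 44.3%, neutrophil-gated cells 17.5%, the GMP gate 15.7% and cells in more than 1 gate 12.1%. There were 46 neutrophil-gated cells in WT, at 278 CPM of Itgb2, and 0 in cKO, although the lineage antibodies named in the study's methods include CD11B and Gr1, which mark neutrophils. The cells in more than 1 gate (55 WT, 19 cKO) were at 155 CPM in WT. Together neutrophil-gated and mixed cells held 29.6% of the WT Itgb2 UMIs and 1.71% of all WT UMIs. The neutrophil markers as a whole (8 of 8 found in WT and in cKO) summed to 5431.1 CPM in WT against 8.01 CPM in cKO. Without neutrophil-gated and mixed cells, Itgb2 was at 8.69 CPM in WT against 23.2 CPM in cKO (log2 ratio 1.42, 1.26 to 1.58), which is past 2-fold.

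**Figure D2:**
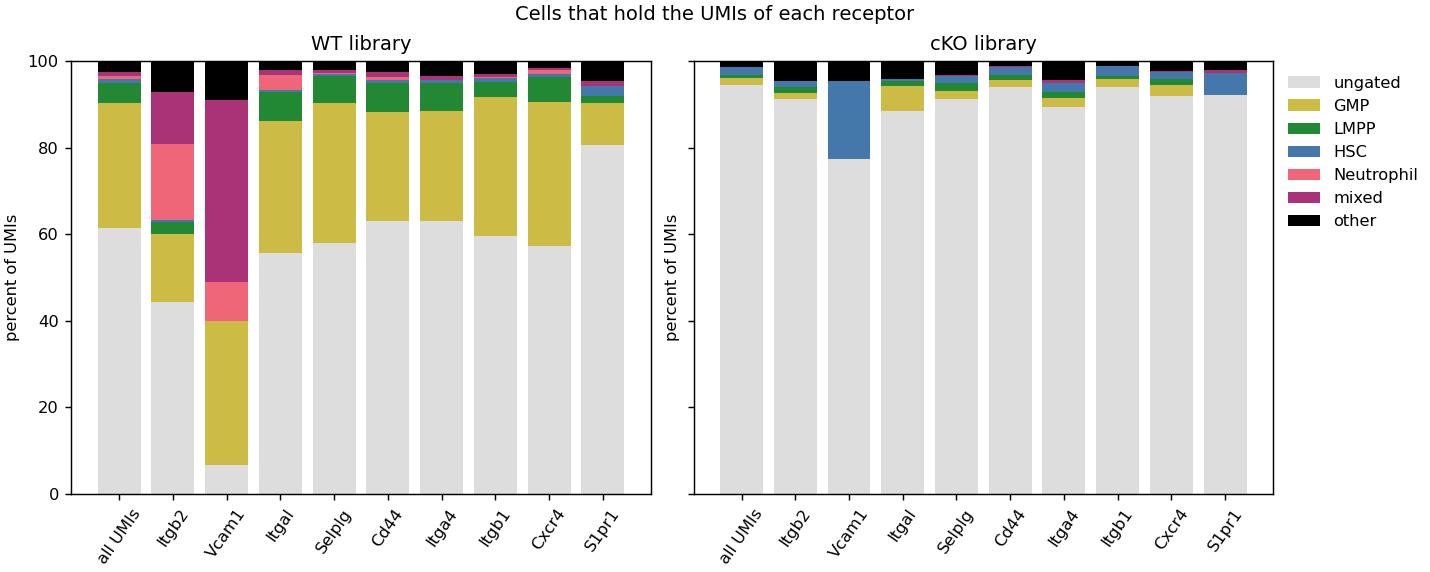
Percent of the UMIs of each receptor, and of all UMIs (first bar), held by ungated cells, by the GMP, LMPP, HSC and neutrophil gates, by cells in more than 1 gate (mixed) and by all other kept cells, in each library. In WT, neutrophil-gated and mixed cells hold 29.6% of Itgb2 and 51.1% of Vcam1 UMIs but 1.71% of all UMIs.

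Itgal took a different course by gate. In GMP-gated cells it was higher in cKO, at 10.5 CPM in WT against 23.0 CPM in cKO (1.14, 0.53 to 1.69; 0.68 on thinned UMIs), and in ungated cells lower, at 9.07 against 6.09 CPM (-0.58, -0.80 to -0.35). LMPP-gated cells had 14.8 and 9.52 CPM, within counting error. HSC-gated cells had 2 UMIs in each library, which gives 5.70 and 1.37 CPM and a ratio of -2.06 with an interval of -5.84 to 1.73. In cKO, Itgal was higher in the LMPP than in the HSC gate beyond counting error.

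S1pr1 and Vcam1 stayed under 5 CPM over all kept cells. S1pr1, the receptor for sphingosine-1-phosphate, was at 4.05 CPM (174 UMIs) in WT and 1.58 CPM (139 UMIs) in cKO (log2 ratio -1.36, -1.69 to -1.03), and at 5.31 and 1.54 CPM in ungated cells (-1.78, -2.14 to -1.43). The HSC gate was its highest gate in both libraries, with 11.4 CPM from 4 UMIs in WT and 4.80 CPM from 7 UMIs in cKO (-1.32, -3.22 to 0.97), although no neighbouring gates differed beyond counting error. In GMP-gated cells 17 UMIs were counted in WT (1.37 CPM) and 0 in cKO, which allows up to 2.09 CPM, so a difference was not detectable at this depth.

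Vcam1 UMIs sat in different cells in each library. There were 45 in 29 WT cells (1.05 CPM) and 22 in 19 cKO cells (0.250 CPM), a log2 ratio of -2.05 (-2.87 to -1.30). In WT, mixed cells held 19 of the UMIs, the GMP gate 15 and the neutrophil gate 4, against 3 in ungated cells. In cKO, ungated cells held 17 and the HSC gate 4, against 0 in the GMP gate. Ungated cells gave 0.114 and 0.205 CPM (0.67, -0.94 to 3.26), from 3 and 17 UMIs, too few to settle a direction. Over all kept cells the ratio was -1.06 (-1.98 to -0.14) without neutrophil-gated and mixed cells, and 0.09 with the same mix of gates. Of all kept cells, 0 in WT and 5 in cKO had 3 or more macrophage markers, and 2 of these 5 were among the 19 cKO cells with a Vcam1 UMI. Macrophage markers summed to 9.03 CPM in WT (Vsig4 at 0) and 3.58 CPM in cKO (8 of 8 found), although 5 of the 8 were higher in cKO (median log2 ratio 0.59, range -5.18 to 1.43), and stromal and endothelial markers to 3.26 CPM (Col3a1 and Pdgfra at 0) and 2.17 CPM (these and Lepr at 0).

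**Figure D3:**
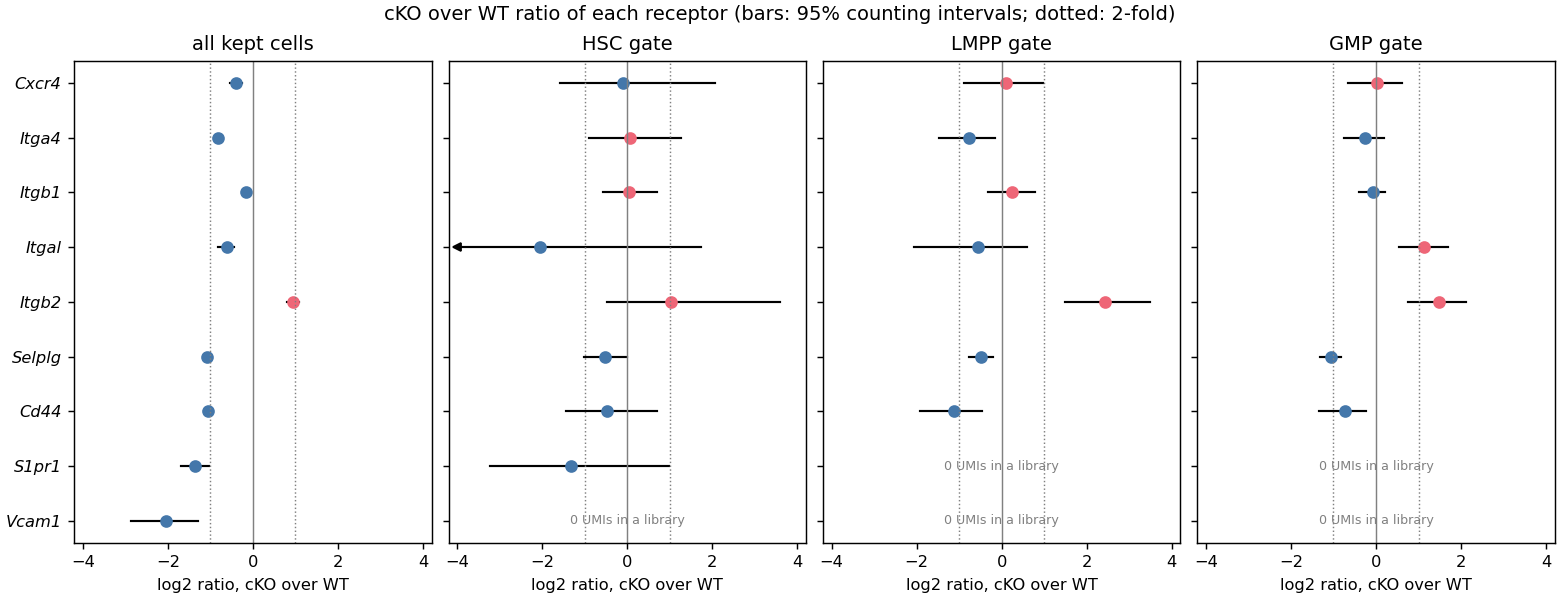
Log2 ratio of cKO over WT for each receptor over all kept cells and in 3 gates, with 95% counting intervals (arrow: the interval runs past the axis) and dotted lines at 2-fold; red points are higher and blue points lower in cKO, and no point is drawn where a library had 0 UMIs. Intervals are narrow over all kept cells and wide in the HSC gate, where the Selplg interval ends at -0.01 and all others hold 0.

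Receptors past 2-fold were also counted by gate. In HSC-gated cells, 1 of 8 measured receptors was past 2-fold higher (Itgb2; 7.27% of all genes measured) and 2 lower (Itgal and S1pr1; 15.4%), and 0 were also beyond counting error (7.41%). In LMPP-gated cells, 1 of 7 was past 2-fold higher (Itgb2; 6.12%) and 1 lower (Cd44; 10.3%), and both were beyond counting error (9.17%). In GMP-gated cells, 2 of 7 were past 2-fold higher (Itgal and Itgb2; 3.94%) and 1 lower (Selplg; 5.41%), and all 3 were beyond counting error (8.21%). Median log2 ratios of the receptors were -0.28, -0.48 and -0.08 in the HSC, LMPP and GMP gates, against -0.18, -0.05 and 0.01 for all genes measured. Smaller gates were counted as UMIs. The WT MkP gate (75 cells) had 36 UMIs of Itgb1 (95.8 CPM) and 9 of Itgb2 (23.9 CPM), and 8 cKO cells were too few for a comparison.

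The machinery around the receptors was read in 10 lists of adhesion and homing genes, of which 100 of 137 reached 5 CPM. Of these 100, 4 were past 2-fold higher (2.95% of all genes measured) and 17 lower (5.21%), with a median log2 ratio of -0.32 against -0.07 for all genes measured. The lists hold the 7 receptors at 5 CPM or more. Of the genes of inside-out integrin activation, which switch integrins to their binding state, 0 of 13 were past 2-fold, near the share of all genes in so short a list. Tln1 (talin) was at 206 CPM in WT against 195 CPM in cKO and Fermt3 (kindlin-3) at 155 and 123 CPM. Among 16 genes of CXCR4 coupling and trafficking, 0 were past 2-fold higher and 4 lower, and the 4 were Rgs1, Rgs2, Rgs10 and Dpp4.

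Rgs1, Rgs2 and Rgs10, regulators of G-protein signalling that shorten chemokine receptor signals, differed more than the other genes of that list, Rgs18 and Rgs19 included. Rgs1 was at 282 CPM in WT against 52.2 CPM in cKO (-2.43, -2.48 to -2.38), Rgs2 at 146 and 24.3 CPM (-2.59) and Rgs10 at 60.0 and 9.75 CPM (-2.62). In HSC-gated cells Rgs1 was at 485 and 93.9 CPM (-2.37, -2.70 to -2.03). Klf2, a transcription factor known to promote S1pr1 expression in lymphocytes, was the 1 gene of 7 past 2-fold in its list, at 73.0 and 14.5 CPM over all kept cells (-2.33), and lower in each gate (HSC -1.59, LMPP -1.86, GMP -2.09). Immediate early genes, a list of 12 to which these genes do not belong, moved with them: all 12 were lower in cKO, and their sum was 5490.2 CPM in WT against 1192.3 CPM in cKO. Their part in the receptor differences was not tested.

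The list of selectin ligands, selectins and glycosyltransferases also held the adhesion molecule Esam, which is none of these. Of its 14 genes at 5 CPM or more, 2 were past 2-fold higher, and those past 2-fold lower included Selplg and Cd44. Also past 2-fold lower was Fut7, the fucosyltransferase that builds selectin-binding glycans on PSGL-1, at 38.6 CPM in WT and 17.8 in cKO (-1.12, -1.22 to -1.02). Fut7 was lower in HSC-gated cells too (34.2 and 6.86 CPM, -2.31, -3.69 to -0.98) and in LMPP-gated cells (-1.87). Higher in cKO were Esam, an endothelial and stem cell adhesion molecule, at 17.8 and 52.5 CPM (1.56, 1.45 to 1.67), and Emcn (endomucin) at 5.73 and 11.6 CPM (1.01). In HSC-gated cells Esam was at 96.9 and 128 CPM (0.38, -0.14 to 0.97), within counting error, and the share of HSC-gated cells was 1.39% in WT and 2.51% in cKO.

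The remaining lists held few genes of sufficient level. Of 7 chemokine and lipid chemoattractant receptors, 0 were past 2-fold higher and 3 lower: Cxcr2 (20.2 and 4.54 CPM), Ccr2 (11.8 and 1.45 CPM) and Cx3cr1 (9.50 and 0.295 CPM), all known from myeloid cells. Of 6 integrin alpha chains, 1 was past 2-fold, Itgam (10.3 and 1.11 CPM), which marks neutrophils and monocytes. The GMP markers summed to 6718.3 CPM in WT against 833 CPM in cKO, and their part in these differences was not tested. Of 4 beta chains, 0 were past 2-fold. Of 11 immunoglobulin-like and other adhesion molecules, Jam3 (0.908 and 6.42 CPM) was past 2-fold higher and Pecam1 (35.7 and 13.2 CPM) lower. Of 5 niche ligands, Spp1 (osteopontin, 3.10 and 8.32 CPM) was higher and the chemokines Ccl3 (181 and 3.25 CPM) and Ccl4 (191 and 11.3 CPM) lower. Genes below 20 CPM in both libraries (Ccr2, Cx3cr1, Itgam, Emcn, Jam3, Spp1 and Dpp4) were named after their values were seen.

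Genes with the most similar pattern were ranked by the Pearson correlation of log2(CPM + 1) over 8 profiles (HSC, LMPP and GMP gates of both libraries, the WT MkP gate and the cKO B cell gate) among 5417 candidates, as a description in which profiles share libraries and depth. The nearest genes were Hk1 (r = 0.984), Tomm40l and Rab2a for Itgb1, Fcho1 (0.981), Apobec3 and Arid5a for Cxcr4, and Trim59 (0.955), Rapgef6 and Casp8ap2 for Itga4. For Itgal they were Faim (0.966), Aaas and Lbr, for Itgb2 Tceb1 (0.945), Pgam5 and Cnbp, for Selplg Myg1 (0.940), Ramp1 and Cmtm7, and for Cd44 Pbld2 (0.956), Ivd and Fam103a1.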

How the data were processed

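The deposited matrices give, for each gene in each cell barcode, whole UMI counts that the authors made with Cell Ranger 6.0.0 on mm10. The labels and the study's methods name different versions of the 3′ kit. The study's limits were applied: over 200 genes, under 4000 (WT) or 4500 (cKO) genes, under 10% (WT) or 5% (cKO) mitochondrial and under 5% hemoglobin UMIs. Likely doublets (629 WT and 686 cKO barcodes) were removed by simulated neighbours at 0.8% per 1000 barcodes. Cells under 2000 UMIs (184 WT, 99 cKO) were not gated. A GMP, DC/monocyte or neutrophil gate also needed 10 marker UMIs. Ratios carry 0.5 prior counts, and intervals (scipy 1.17.1) are exact Poisson, conditional binomial or binomial and cover counting error only. Where a count was 0, the limit given is 3 counts. Scripts were tested on simulated data. Alternative scalings used edgeR 4.0.16 (TMM factors) and the median-of-ratios rule. The rule for named genes took the 9 receptors, up to 20 list genes past 2-fold at 20 CPM with the largest ratios, and 3 nearest genes each. Trmt6 was taken as a check of the labels. It was lower in cKO over all kept cells and in HSC-gated and ungated cells, but within counting error in the LMPP and GMP gates. The receptors, gates and lists were chosen with earlier results of these data known. Grk2 was not found by that symbol (Adrbk1 was used), nor was the MkP marker Cavin2. Some items of the lists are not reported here.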

Additional observations from a re-analysis of the deposited data

Results flagged for a closer look

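Itgal moved in opposite directions by gate. In GMP-gated cells the log2 ratio of cKO over WT was 1.14 (131 WT and 33 cKO UMIs), and in ungated cells -0.58 (239 and 506 UMIs), each beyond counting error. With 1 library per genotype the difference between the gates was not tested, and the GMP gate held 86 cKO cells.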

How the results depend on the processing

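Of 337 alternative values for 31 receptor ratios, 25 lay outside the counting interval of the ratio, and 2 past 2-fold ratios changed sign inside their wide intervals: Itgal in HSC-gated cells was 0.67 on thinned UMIs, and S1pr1 in HSC-gated cells 0.12 with the gate read at 3000 UMIs. Sign also turned, outside the interval, for Itga4 in GMP-gated cells (1.05) and Cxcr4 in LMPP-gated cells (-1.04), both on thinned UMIs, and for Vcam1 over all kept cells (below). The cause was not tested. Scaling moved the median of all genes from -0.07 to 0.03 (TMM) and 0.04 (median of ratios), and in HSC-gated cells from -0.18 to -0.04 and -0.03. Over all kept cells both scalings gave 1 receptor past 2-fold in place of 2, Itgb2 now being past it and Selplg and Cd44 just short (-0.99 and -0.96 by median of ratios). Equal or near counts also hid a change of members: leaving ribosomal protein and mitochondrial genes out of the total made the 2 Itgb2 and S1pr1, with Cd44 at -0.96 and Selplg also just short, and with each cell scaled before averaging there were 3, Itgb2, Cd44 and S1pr1 (Selplg -0.82, outside its interval). No filter on low genes gave 4, with S1pr1 and Vcam1. In HSC-gated cells the 3 receptors became Itga4 and Itgb2, both higher, on thinned UMIs, 0 at 20 CPM, 1 with the gate read at 3000 UMIs, and 0 where the interval also had to leave out 0, a rule added after the data were seen, as was leaving out neutrophil-gated and mixed cells. LMPP-gated cells gave 1 (Itgb2) in place of 2 with the gate read at 3000 UMIs, and GMP-gated cells 5 in place of 3 with no filter. Vcam1 over all kept cells was -1.06 without neutrophil-gated and mixed cells and 0.09 with the same mix of gates. MkP-gated cells (8 in cKO), HSC and LMPP gates at 4 markers and the same gates read at 1000 UMIs had under 50 cells in a library and gave no ratio. No paired analysis was possible because each genotype has 1 library.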

Other observations

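Receptor levels also differed with the cell cycle. Cells with at least 3 of 12 G2/M genes were 28.1% of WT and 24.1% of cKO cells after thinning. Cxcr4 was higher in them in both libraries, at 19.4 against 12.4 CPM in the other WT cells (log2 ratio 0.64, interval 0.41 to 0.87) and 13.0 against 10.9 CPM in cKO (0.26, 0.07 to 0.45). Itgb2 was lower in G2/M cells in cKO, at 17.3 against 25.1 CPM (-0.54, -0.70 to -0.39), and at 12.1 CPM in both classes in WT. Selplg was higher in G2/M cells in WT, at 206 against 180 CPM (0.20), with 85.4 and 89.2 CPM in cKO. Cd44 differed within counting error in both libraries. Cells of a library are not replicates, so these are descriptions of 2 libraries. B-gated cells in cKO, 67 against 9 in WT, had 46.7 CPM of Itgb2, 20.3 CPM of Itgal and 8.12 CPM of Cd44. Plasma cell markers summed to 81.5 CPM in WT and 591 CPM in cKO, with single-gene log2 ratios from -0.54 to 10.46 (median 1.03, 5 of 6 higher in cKO). Medians were -0.21 in HSC-gated (3 of 6 higher), 1.13 in LMPP-gated (4 of 6) and -0.09 in GMP-gated cells (3 of 6). The sums in WT and cKO were 94.1 and 270 CPM in HSC-gated, 97.2 and 173 CPM in LMPP-gated and 108 and 122 CPM in GMP-gated cells.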
